A study of Mus musculus with 147 samples.

Results

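The cells described here were the E7.5 cells with Hand1 transcript that carried little of the visceral endoderm and germ cell transcripts used as limits, and they numbered 517 of the 895 wild-type E7.5 cells that passed the filter and of the 11598 such cells of the whole series. A cell was a member when its name gave E7.5 and WT, more than 2000 genes and 10000 to 1000000 UMIs (unique molecular identifiers, one for each captured transcript) were counted in it, and its levels were at least 50 CPM for Hand1, under 500 CPM for Apoa1 and under 50 CPM for Dppa3. CPM, counts per 1000000, is a gene's UMIs divided by all UMIs of the same cell, or of the same summed cells, on that scale. Because Hand1, Apoa1 and Dppa3 chose the cells, their levels are given as a description and were not tested.

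The study followed mouse male germ cells through development by single-cell RNA sequencing, in which each cell was moved by mouth pipette into its own barcoded lysis buffer, and E7.5 was one of its earliest stages. The embryos came from C57BL/6 females crossed with males carrying Blimp1-mVenus and Stella-ECFP reporters, so the reporters' background was shared by all E7.5 cells, and no treatment or mutation separated them. The deposited table of cells gave 4 replicates at E7.5, R1 to R4, each a pool of cells from several embryos. The study's methods do not say whether embryos of this stage were sexed. The cell names carried a further field, EPIrandom or FACSrandom, whose meaning is not given in the sources used here. The libraries' own labels state neither stage nor replicate, so pools were taken from the table of cells and no sample was put in a group by its labels. R1 and R2 held every member, so n in the comparisons is 2 pools. With so few pools, the fit takes the error of a gene largely from all genes tested. A small p-value therefore does not measure how closely the 2 pools agree for that gene.

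Mesoderm forms at E7.5 when epiblast cells lose their epithelial contacts in the primitive streak and move out between the outer layers of the embryo. Mixl1 and the T-box factor T are transcribed in the streak and in cells that have just left it, Mesp1 marks the earliest migrating mesoderm, and the basic helix-loop-helix factor Hand1 marks extraembryonic and lateral plate mesoderm, from which allantois, amnion and yolk sac mesoderm derive. BMP4 made in the extraembryonic region acts on these cells and also induces the primordial germ cells that the study set out to follow.

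Members made up 304 of 476 cells in R1, or 63.9% (95% exact binomial interval 59.4% to 68.2%), and 213 of 277 cells in R2, or 76.9% (71.5% to 81.7%). R3 had 0 members among 95 cells, which allows a share of up to 3.16% when 3 counts are taken as the limit of a count of 0, and 3.81% as the upper end of the 95% exact interval. R4 had 0 among 47 cells, which allows 6.38% and 7.55% in the same way. These intervals and limits cover counting error only. In R3 a single cell reached 50 CPM of Hand1 and in R4 12 cells did, and every such cell was at 50 CPM or more of Dppa3. Apoa1 was never below 337 CPM in R3 or 325 CPM in R4, against a median of 206 CPM in R1 and 4.22 CPM in R2. The other 378 cells comprised 67 Hand1-low cells, which met the Apoa1 and Dppa3 limits, 190 cells with Apoa1 at 500 CPM or more (the Apoa1 class) and the rest, with less Apoa1 and with Dppa3 at 50 CPM or more (the Dppa3 class). Many of these other cells also reached 50 CPM of Hand1. In the Dppa3 class 33 of 34 cells of R1 and 45 of 48 of R2 did. In the Apoa1 class 30 of 81 cells of R1 and 1 of 6 of R2 did. A comparison with all other cells is therefore not one of Hand1-positive with Hand1-negative cells. By the field in the cell names, members were 236 of 292 EPIrandom cells and 68 of 184 FACSrandom cells of R1. In R2 they were 30 of 48 EPIrandom cells and 183 of 229 FACSrandom cells. All 48 EPIrandom cells of R2 came from its library 1, whereas its FACSrandom cells came from 3 libraries. Members were 43.7% of the cells in R2 library 1, 95.8% in library 2 and 88.4% in library 3. The shares by name field in R2 therefore cross libraries and are not comparable with those of R1.

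**Figure D1:**
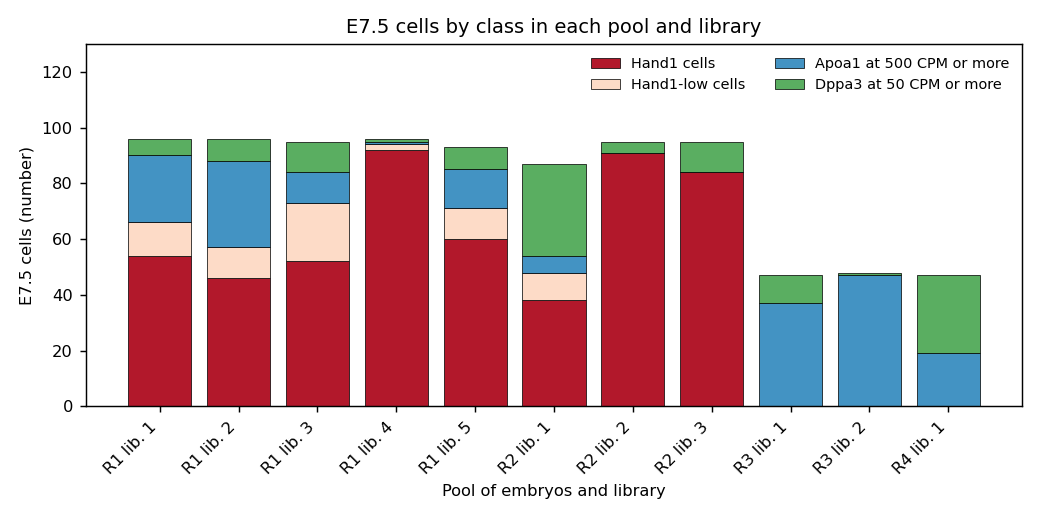
E7.5 cells (number, y axis) in each library of each pool of embryos (x axis), stacked by class; libraries are numbered within a pool, and R3 library 1 and R4 library 1 are one library that held cells of both pools. The 8 libraries of R1 and R2 hold all 517 members, and the 3 bars of R3 and R4 hold none.

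Hand1 separated members from Hand1-low cells without a gap. The 3 members nearest the limit stood at 50.4, 50.9 and 51.7 CPM and the 3 cells just below it at 49.4, 47.1 and 46.7 CPM. From 50 to under 100 CPM there were 57 members, and 47 of the 67 Hand1-low cells lay between 20 and 50 CPM. Over members, Hand1 had a median of 374 CPM and a maximum of 2018 CPM, and summed by library it lay between 343 and 446 CPM.

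R2 libraries 2 and 3 stood apart from the other libraries in transcripts of spermatocytes and spermatids. In R2 libraries 2 and 3, 172 of 175 members (98.3%) held a UMI of Meig1, a gene of male meiosis, against 9 of 342 members (2.63%) in the other 6 libraries. The summed level of 8 transcripts of spermatocytes and spermatids (Prm1, Prm2, Tnp1, Tnp2, Meig1, Ldhc, Zpbp and Tex101, listed after their values were seen) was 165 and 465 CPM in these libraries and 6.36 to 39.05 CPM in the members of the others. In the same 2 libraries 163 of 175 members held UMIs of both Xist and a Y-linked gene, or 93.1%, against 32.7% of the 342 elsewhere. Elsewhere the share varied by library, with 25 of 38 in R2 library 1, 24 of 46 in R1 library 2 and 4 of 92 in R1 library 4. None of the cells in R2 libraries 2 and 3 was Hand1-low or of the Apoa1 class. R1 library 4 also held few, with 2 Hand1-low cells and 1 of the Apoa1 class among 96. Over all 517 members, 275 held both Xist and Y-linked UMIs, 235 Y-linked UMIs without Xist, 3 Xist alone and 4 neither. Of the 38 members of R2 library 1, 0 held a Meig1 UMI. Each comparison with the other cells was therefore repeated with R2 reduced to its library 1, an alternative added after the data were seen. Across the 10 E7.5 libraries 96 cell barcodes recurred, with 47 to 96 shared by a pair of libraries; no barcode was used by more than 1 cell of a library and no 2 cells had the same counts. No doublet caller was run.

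Members were deeply sampled, with a median of 249615 UMIs and 8683.5 genes in R1 and of 380454 UMIs and 10687 genes in R2, and with 81703315 and 82627781 UMIs in all. The Hand1-low cells of R2 numbered only 10, all from library 1, with 2851163 UMIs together.

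The markers that name the cells were present in most of them. T was at 50 CPM or more in 462 of 517 members (89.4%), Msx1, a homeobox target of BMP signalling, in 445 (86.1%), Rspo3, a secreted enhancer of Wnt signalling, in 397 (76.8%) and Mixl1, a homeobox factor of the streak, in 354 (68.5%). All 4 reached that level in 266 members (51.5%), and 9 members reached it for none. Of the 67 Hand1-low cells, 3 reached it for all 4 and 25 for none. In the Dppa3 class all 4 reached it in 11.8% of R1 and 27.1% of R2 cells, against 45.1% and 60.6% of members. Exactly 3 reached it in 64.7% and 35.4% of that class, against 26.6% and 28.6% of members. The 4 genes summed to 989 and 717 CPM in that class and to 851 and 896 CPM in members. These markers were therefore not particular to members. Mesp1 reached it in 446 members (86.3%), Foxf1, a forkhead factor of lateral plate and extraembryonic mesoderm, in 312 (60.3%), and Bmp4 in 273 (52.8%). The share for Foxf1 was 1 of 67 in the Hand1-low cells (1.49%). Defining markers of other tissues were low: Elf5, of extraembryonic ectoderm, was at 0.8 CPM in the summed members and the embryonic globin Hbb-bh1 at 0.3 CPM. Ttr, a carrier protein made by visceral endoderm, was not near 0, at 154 CPM in R1 and 20.9 CPM in R2.

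**Figure D2:**
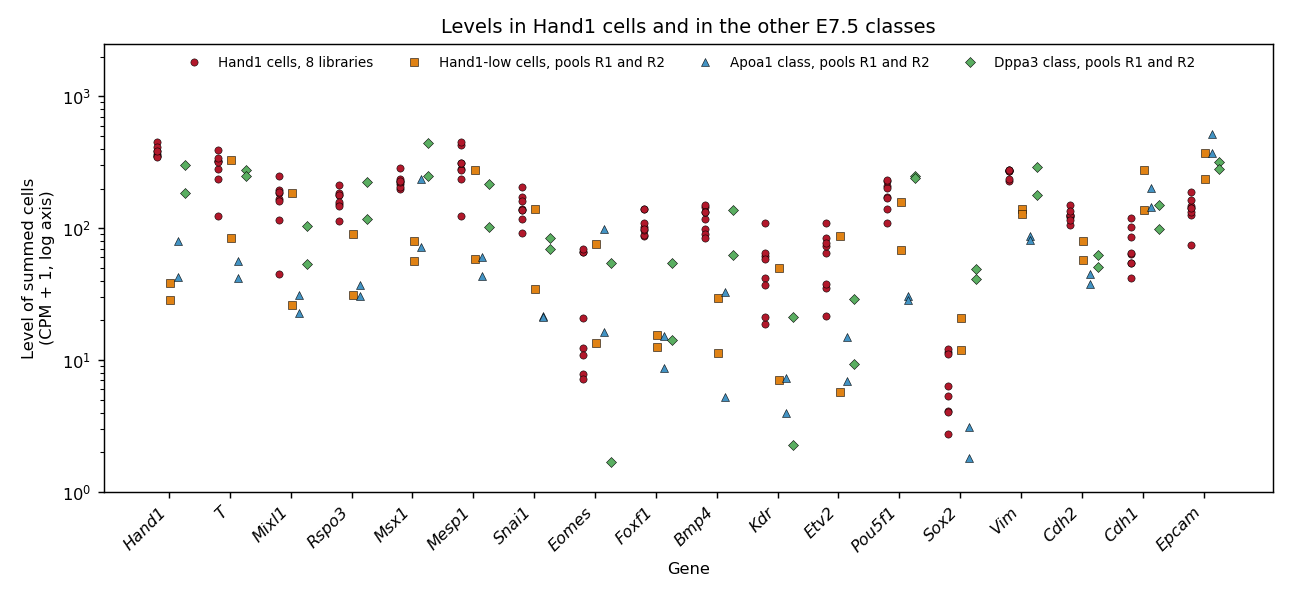
Level of 18 genes in summed cells (CPM + 1, log y axis); red points are the members of each of the 8 libraries with members, and squares, triangles and diamonds are the Hand1-low, Apoa1 and Dppa3 classes of pools R1 and R2. Hand1 was a limit of the rule and is drawn as a description. Foxf1 and Bmp4 in members lie above both Hand1-low points in every library, whereas T and Mesp1 in the Hand1-low cells of R2 lie among the members.

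Summed by library, the members' levels covered the following ranges. T ranged from 122.7 to 391 CPM over the 8 libraries with a median of 320.5 CPM, and the lowest value was that of R1 library 2. Mixl1 ranged from 43.7 to 249 CPM and Mesp1 from 123.9 to 450 CPM, again with R1 library 2 lowest. Foxf1 lay between 86.4 and 139.01 CPM, Bmp4 between 84.02 and 149 CPM, Msx1 between 197 and 288 CPM, and Vim between 226 and 276 CPM. Eomes, a T-box factor of the early streak and epiblast, split the pools: it was 6.2 to 19.9 CPM in the 5 libraries of R1 and 65.1 to 68.2 CPM in the 3 libraries of R2, library 1 included. Between the pools, 99.3% of the 5962 genes with a mean of at least 32 CPM differed by less than 2-fold in the members' summed level, with a median absolute log2 difference of 0.17.

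Members were first compared with all other E7.5 cells of R1 and R2 (304 against 172 and 213 against 64 cells, counts summed per pool and class, edgeR quasi-likelihood test with the pool as block and Benjamini-Hochberg adjustment, 1 residual degree of freedom). Of 17595 genes tested, 278 were higher in members (1.58%) and 723 lower (4.11%) at an adjusted p under 0.05. The other cells include the 2 classes defined by Apoa1 and Dppa3, so genes of visceral endoderm and germ cells that go with these had to be lower, and their counts are given as a description: 14 of 14 tested genes of the visceral endoderm list and 8 of 11 of the germ cell list were lower.

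Streak and nascent mesoderm genes were higher in members, with 11 of 21 tested above and 1 below, and a median log2 difference of 1.03 against 0.05 over all genes tested. Mesp1 was 252 CPM in R1 and 412 CPM in R2, against 59.2 and 213 CPM in the other cells of the same pools. Both values of the other cells lay below both member values, a description given without the share of all genes for which this held. The log2 difference was 1.52 ± 0.19 (SE, adjusted p = 5.89e-05). Snai1, the repressor of E-cadherin transcription, differed by 1.53 ± 0.18 (adjusted p = 2.91e-05), and Mixl1 by 1.56 ± 0.21 (adjusted p = 0.000158). T differed by 0.90 ± 0.18 (adjusted p = 0.00561), which did not pass with R2 reduced to its library 1 (0.73, adjusted p = 0.105), and Msx1 by 0.06 ± 0.12 (adjusted p = 0.905). Nodal, the ligand whose level is highest before and early in gastrulation, was the gene of this list that was lower, at -1.65 ± 0.39 (adjusted p = 0.016), and it did not pass with R2 reduced (-1.22, adjusted p = 0.218).

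The window around the start of Mesp1 is shown because Mesp1 is a known T-box target and T and Mesp1 were both among the genes that were higher. It spans chr7:79793541-79793840 of GRCm38.p6 on the minus strand in RefSeq, from 250 bases before to 50 bases after the start, written 5′ to 3′ with the T-box motif TCACACCT in capitals, beginning at base 256.
Mesp1: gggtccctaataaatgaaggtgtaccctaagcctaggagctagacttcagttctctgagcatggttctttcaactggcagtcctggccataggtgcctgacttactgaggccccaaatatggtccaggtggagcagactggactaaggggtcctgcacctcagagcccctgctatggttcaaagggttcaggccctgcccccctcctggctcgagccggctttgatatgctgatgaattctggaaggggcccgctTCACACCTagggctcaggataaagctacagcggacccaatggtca
Searched on both strands, this motif was in 419 of 32851 windows of that length (1.28%) and in 1 of the 16 windows found for the streak list, that of Mesp1. A match is a description of letters and no evidence of binding.

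Genes of extraembryonic and lateral plate mesoderm were higher for 8 of 17 tested and lower for 0, with a median of 0.84. The list summed to 1185 and 1202 CPM in members of R1 and R2. It summed to 1380 and 868 CPM in the Dppa3 class and to 667 and 270 CPM in the Apoa1 class, so it was not particular to members. Foxf1, at chr8:121084386-121088144 in mm10 with GENCODE M21, was 96.8 and 125.9 CPM in members and 14.2 and 43.99 CPM in the other cells, a difference of 2.14 ± 0.25 (adjusted p = 3.6e-05). Bmp4 differed by 1.24 ± 0.17 (adjusted p = 0.000181). Both passed with R2 reduced, at 2.25 and 1.40. The other 6 genes called were Msx2, Hand2, Tbx3, Tbx20, Isl1 and Wnt5a. With R2 reduced, Msx2 (adjusted p = 0.127), Hand2 (0.14), Tbx20 (0.0518) and Wnt5a (0.402) did not pass, and Tbx3 did not pass with sums per library (adjusted p = 0.0828).

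Of 18 haemato-endothelial genes, Kdr and Etv2 were higher and Hhex was lower. The Hhex difference of -1.40 did not pass with sums per library (adjusted p = 0.0945) or with R2 reduced (adjusted p = 0.27), and it was 0.20 without R1. Kdr encodes the VEGF receptor of endothelial and blood precursors and was 35.8 and 70.1 CPM against 3.59 and 23.4 CPM (2.43 ± 0.36, adjusted p = 0.000336). Etv2, the ETS factor that starts the endothelial programme, differed by 2.06 ± 0.34 (adjusted p = 0.000924). Tal1, which acts later in blood formation, reached 50 CPM in 17 members (3.29%), and 0 of 7 tested blood genes were called. Of 13 cardiac genes Tnnt2, Isl1, Hand2 and Actc1 were higher, and of 12 paraxial mesoderm genes 6 were. The lists share genes, so these counts are not separate. Isl1 and Hand2 were also counted in the extraembryonic and lateral plate list, and the paraxial genes Tbx6, Msgn1, Dll1 and Dll3 in the streak list.

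Epithelial genes were lower for 10 of 15 and higher for 0, with a median of -1.36. Mesenchymal genes were higher for 6 of 13 and lower for 0, with a median of 1.05. The epithelial list summed to 1198 and 1045 CPM in members of R1 and R2, and to 3179 and 4556 CPM in the Apoa1 class. It was 1702 and 1509 CPM in the Dppa3 class and 3407 and 1765 CPM in Hand1-low cells. The Apoa1 limit kept the Apoa1 class out of the members, so the epithelial counts here go with that limit and are given as a description. Cdh1, the epithelial cadherin, was 78.99 and 56.9 CPM in members and 213 and 106.4 CPM in the other cells (-1.17 ± 0.16, adjusted p = 0.000218). Cdh11, a mesenchymal cadherin, was 65.3 and 112.4 CPM against 7.21 and 36.1 CPM (2.40 ± 0.30, adjusted p = 6.13e-05). Vim, an intermediate filament of mesenchyme, differed by 0.77 ± 0.12 (adjusted p = 0.000819). The groups did not overlap for any of these 3 genes, but the share of all genes tested without overlap is not given here. With 2 values on each side, this separation is a description only.

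Of 31 Hox genes 8 were higher and 0 lower, and Hoxb1 was 188 and 139.6 CPM against 32.6 and 61.97 CPM (1.85 ± 0.24, adjusted p = 8.75e-05). In the Wnt pathway 6 of 42 genes were higher, the ligands Wnt3, Wnt5a and Wnt5b with Rspo3, Lef1 and Nkd1, and 6 were lower, the receptors Fzd5, Fzd6 and Fzd8 with Sfrp1, Sfrp5 and Porcn. In the FGF pathway 4 of 20 were higher, and Fgf15 differed by 1.93 ± 0.28 (adjusted p = 0.000268). In the BMP pathway 3 of 30 were higher and 2 lower. Of 10 handling stress genes 6 were lower in members, and the list summed to 608 and 310.2 CPM in members of R1 and R2; its part in the other differences was not tested.

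With sums per library, which kept 6 libraries with at least 10 cells on each side (334 members against 228 other cells, without R1 library 4 and R2 library 2), 824 genes were higher (4.85%) and 1151 lower (6.77%), and the streak list had 11 higher and 0 lower. With R2 reduced to its library 1, 0.787% of 15508 genes were higher and 2.35% lower, and the streak list had 6 higher and 0 lower, the extraembryonic and lateral plate list 4 and 0, and the epithelial list 0 and 7.

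**Figure D3:**
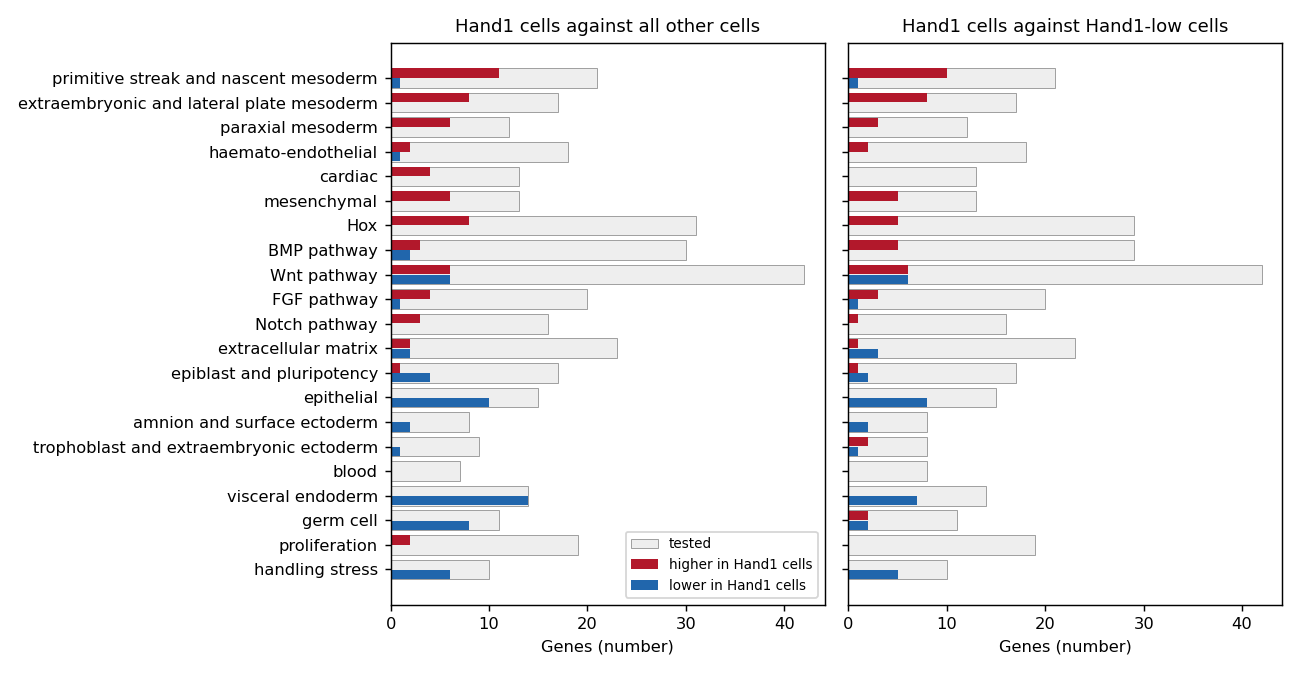
Genes of each list (number, x axis) that were tested (grey), higher in members (red) and lower in members (blue) at an adjusted p under 0.05, against all other E7.5 cells (left) and against Hand1-low cells (right). The epithelial list has 10 and 8 lower and 0 higher. On the left, the lower visceral endoderm, germ cell and epithelial genes go with the limits that chose the cells. On the right, the higher extraembryonic and lateral plate genes go with the Hand1 limit.

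Members were then compared with the 67 Hand1-low cells, which met the same Apoa1 and Dppa3 limits. All 10 such cells of R2 came from its library 1, so within R2 this comparison crossed libraries. Of 16193 genes tested, 163 were higher in members (1.01%) and 230 lower (1.42%). Of the genes higher here and against all other cells 96 were shared, 58.9% of the former and 34.5% of the latter, and these comparisons share the members and the Hand1-low cells.

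Extraembryonic and lateral plate genes were higher for 8 of 17 and lower for 0, with a median of 1.61 against 0.08 over all genes. Hand1 alone set these groups apart and is itself a marker of this mesoderm, so genes that go with Hand1 had to be higher. The counts and p-values of this list are therefore given as a description. Foxf1 was 14.5 and 11.6 CPM in Hand1-low cells, against 96.8 and 125.9 CPM in members (3.01 ± 0.30, adjusted p = 3.92e-21). Bmp4 was 116.6 and 116.5 CPM in members and 10.3 and 28.8 CPM in Hand1-low cells (2.74 ± 0.28, adjusted p = 4.09e-19). Msx1, at chr5:37820485-37824583, was 231 and 220 CPM against 79.2 and 55.8 CPM (1.71 ± 0.18, adjusted p = 1.48e-17). These genes passed with sums per library and with R2 reduced. Against all other cells the Msx1 difference did not pass, and among them the Dppa3 class stood at 439 and 248 CPM.

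T, at chr17:8434423-8442496, was 297 and 310 CPM in members and 83.6 and 331 CPM in Hand1-low cells. The groups overlapped, since the Hand1-low cells of R2 were above both member values. The fitted difference was 0.83 ± 0.15 (adjusted p = 4.7e-06), and with R2 reduced to its library 1 it was 0.62 and did not pass (adjusted p = 0.0556). Mixl1, at chr1:180693043-180697034, was 25.3 and 183 CPM in Hand1-low cells against 146.5 and 213 CPM (1.32 ± 0.20, adjusted p = 4.77e-09). Rspo3, at chr10:29452416-29535867, was 30.003 and 88.7 CPM against 176 and 153 CPM (1.64 ± 0.22, adjusted p = 9.91e-12). Of the streak list 10 of 21 were higher and Sp5 was lower.

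Etv2 overlapped as well, at 46.8 and 80.7 CPM in members and 4.68 and 85.9 CPM in Hand1-low cells (1.49 ± 0.33, adjusted p = 0.00055). Of 13 cardiac genes 0 were called in either direction in this comparison.

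Epithelial genes were lower for 8 of 15, and Cdh1 was 274 and 137.1 CPM in Hand1-low cells (-1.58 ± 0.19, adjusted p = 1.52e-14). Hesx1, Foxa2 and Otx2 were among the 10 genes with the largest negative differences. Hesx1, a homeobox factor of the anterior embryo, was 12.3 and 1.31 CPM in members and 138.4 and 35.4 CPM in Hand1-low cells (-4.12 ± 0.34, adjusted p = 2.57e-29). Foxa2, a forkhead factor of endoderm and midline, was 9.77 and 3.34 CPM against 119.4 and 33.3 CPM (-3.51 ± 0.36, adjusted p = 2.24e-19). Otx2 differed by -2.83 ± 0.40 (adjusted p = 3.38e-10). The visceral endoderm list summed to 1302 and 504 CPM in members and 3107 and 1288 CPM in Hand1-low cells, 7 of its 14 tested genes were lower, and its part in these differences was not tested.

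Outside the lists, Sct, the precursor of secretin, was 73.5 and 52.9 CPM in members and 5.83 and 5.61 CPM in Hand1-low cells (3.43 ± 0.42, adjusted p = 3.2e-13). Pmp22, a membrane protein of myelin and epithelia, was 144.2 and 193 CPM against 16.4 and 48.8 CPM (2.53 ± 0.23, adjusted p = 1.14e-24). Gm3417 and Tcte3 were also among the 10 largest, but only the members of R2 libraries 2 and 3 were high. In these Tcte3 was 169.5 and 356 CPM and Gm3417 155 and 331 CPM, whereas R2 library 1 stood at 2.81 and 2.43 CPM. Tcte3 was 3.37 CPM in R1 and 196 CPM in R2, against 2.23 and 3.51 CPM, and its difference of 2.99 (adjusted p = 3.91e-11) was 0.10 (adjusted p = 0.9995) with R2 reduced. Fos (-1.70) and Ttr (-1.02) did not pass in either repeat by library. With sums per library, which kept 5 libraries (250 members against 65 Hand1-low cells, from R2 library 1 alone in R2), 278 genes were higher (1.92%) and 333 lower (2.3%), with 10 higher and 0 lower in the extraembryonic and lateral plate list. With R2 reduced, 94 genes were higher (0.668%) and 120 lower (0.853%), with 7 and 0 in that list.

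**Figure D4:**
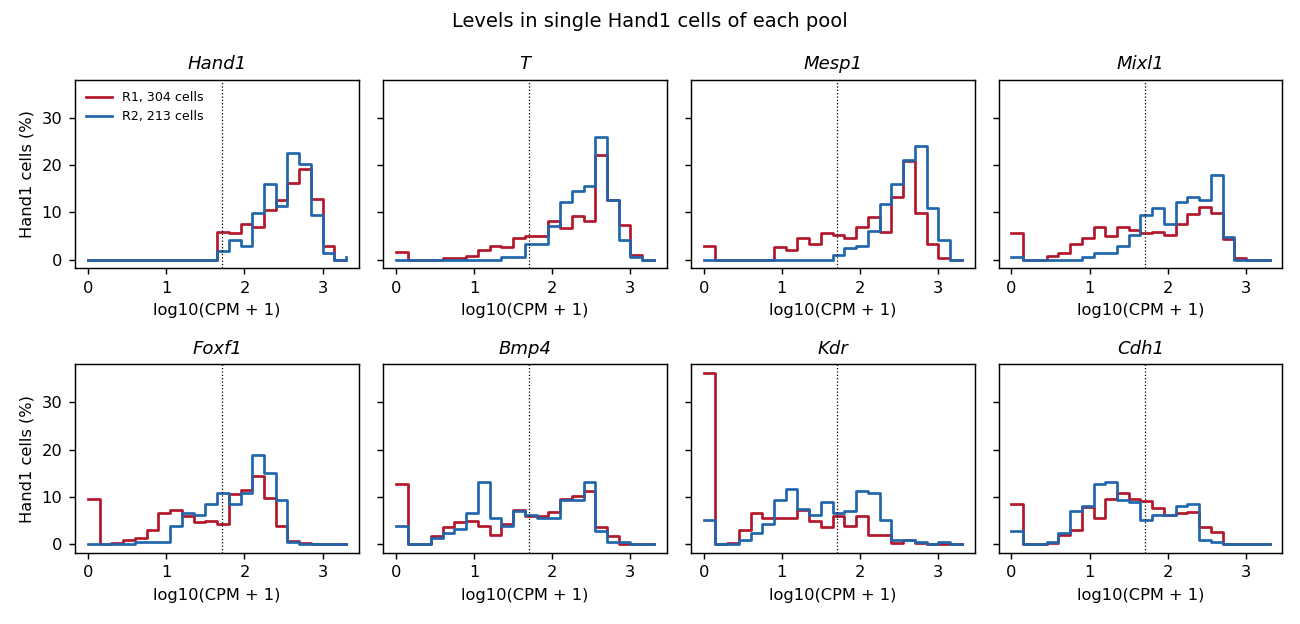
Share of members (%, y axis) by level in single cells (log10 of CPM + 1, x axis) for 8 genes in R1 (red, 304 cells) and R2 (blue, 213 cells); the dotted line is 50 CPM. Hand1 starts at its limit by the rule, and T is at or above the line in 83.6% of R1 and 97.7% of R2 members.

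Members were not uniform. T at 50 CPM or more went with Mixl1, which was at that level in 76.2% of the 462 cells with T and in 2 of the 55 without (3.64%). Foxf1 reached it in 61.9% and 47.3% of the same cells. Kdr reached it in 44 of 254 members with T (17.3%) and 10 of 50 without in R1, and in 84 of 208 (40.4%) and 3 of 5 in R2. Etv2 reached it in 49.6% of members with Kdr at 50 CPM and in 20.5% of the others. Cdh2 reached it in 53.2% of members with Cdh1 at 50 CPM and in 86.1% of the others. These shares are descriptions over cells that share libraries and depth, and a UMI count near the level of few molecules can miss a gene.

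Members with T below 50 CPM numbered 50 in R1 and 5 in R2, under the minimum of 10 cells per pool and class. With a minimum of 5 cells, 177 of 15716 genes were higher with T and 214 lower. At 100 CPM of T, a limit listed as an alternative, R1 had 220 members at or above and 84 below, and R2 had 192 and 21. Library 1 held 38 of the 213 members of R2 but most of its members below 100 CPM. Within R2 this comparison therefore also crossed libraries in large part, and it was not repeated with R2 reduced to its library 1. In R1, library 2 held 46 of the 304 members and had the lowest summed T of the 8 libraries, 122.7 CPM. The comparison at 100 CPM was not repeated by library. Of 16312 genes tested, 361 were higher with T (2.21%) and 617 lower (3.78%), with a median of 0.03. T chose these cells and was not tested.

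Streak genes were higher for 17 of 20 and lower for 0, and paraxial mesoderm genes for 8 of 12 and 0. Mesp2, Tbx6, Msgn1, Dll1 and Dll3 were counted in both lists. T is itself a streak gene and chose these cells, so genes that go with T had to be higher. The counts and p-values of these lists are therefore given as a description. Mixl1 was 192 and 231 CPM with T and 20.5 and 45.7 CPM below (2.78 ± 0.12, adjusted p = 9.82e-107). Tbx6, a T-box factor of paraxial mesoderm, was 71.3 and 62.4 CPM against 6.35 and 11.8 CPM (2.96 ± 0.24, adjusted p = 1.24e-31). Dll1, a Notch ligand, was 79.8 and 73.8 CPM against 7.36 and 12.3 CPM (3.02 ± 0.23, adjusted p = 7.53e-38). For each of these 3 genes both values with T lay above both values below, again a description without the share over all genes.

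Of the extraembryonic and lateral plate list 3 of 17 were higher with T (Isl1, Wnt5a and Cdx2) and 6 lower (Msx1, Hand2, Tbx4, Tbx20, Pitx1 and Ahnak). Of 18 haemato-endothelial genes Lmo2 was higher and 6 were lower, Kdr among them (-0.66 ± 0.17, adjusted p = 0.00205). At 50 CPM with a minimum of 5 cells, Kdr (-0.07, adjusted p = 0.998) and Hand2 (0.17, adjusted p = 0.999) did not pass. Foxf1 was 96.8 CPM on both sides in R1 and 125.4 and 131.3 CPM in R2 (-0.04 ± 0.12, adjusted p = 0.959), and Bmp4 was 110.6 and 132.98 CPM in R1 and 115.7 and 124.3 CPM in R2 (-0.19 ± 0.11, adjusted p = 0.46). Cardiac genes were lower with T for 7 of 12 and higher for 2, of which Hand2 (lower) and Isl1 (higher) were also counted in the extraembryonic and lateral plate list. Myl7, a myosin light chain of the atrium, was 40.9 and 32.6 CPM with T and 176 and 112.3 CPM below (-1.95 ± 0.14, adjusted p = 2.6e-43). It too was highest in the members of R1 library 2, at 162 CPM against a median of 62.4 CPM over libraries. Sfrp1, a secreted Wnt inhibitor, was 17.8 and 5.07 CPM against 89.6 and 61.8 CPM (-2.95 ± 0.22, adjusted p = 8.31e-39). Visceral endoderm genes were lower for 10 of 14 and stress genes for 5 of 10, and their part in these differences was not tested.

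**Figure D5:**
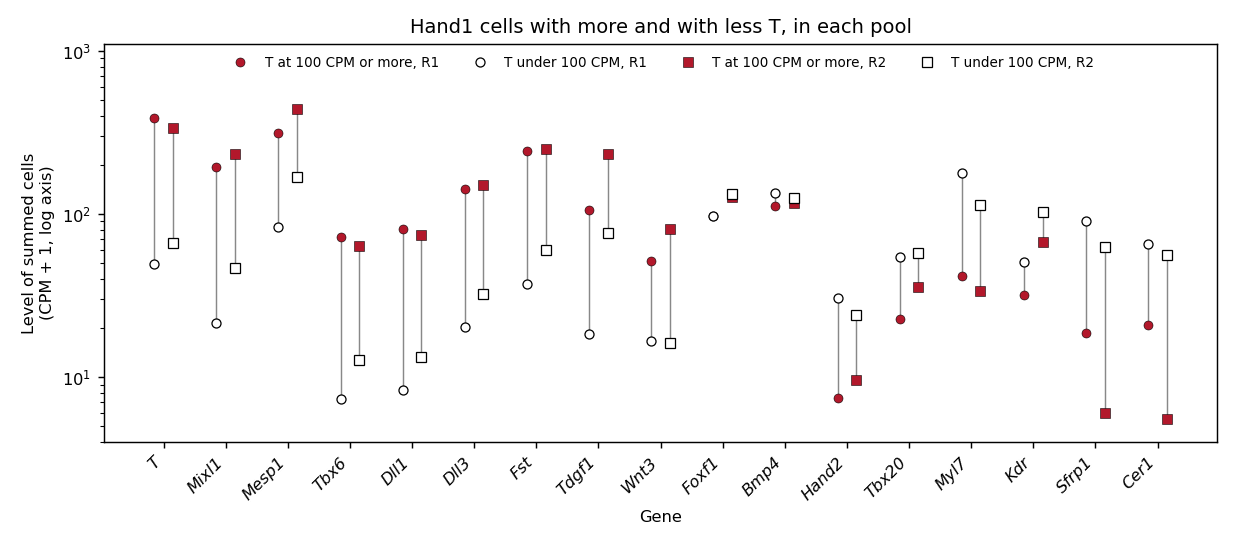
Level of 17 genes in summed members (CPM + 1, log y axis) with T at 100 CPM or more (filled) and below (open) in R1 (circles) and R2 (squares), joined within a pool; T chose the cells. Mixl1, Tbx6 and Dll1 are higher with T in both pools, Myl7 and Sfrp1 are lower, and the Foxf1 and Bmp4 symbols lie close together.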

How the data were processed

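Counts of UMIs per gene and cell, deposited as one table, were made by the authors with UMI-tools, STAR (mm10) and featureCounts, per the submitters' processing notes and the study's methods; they are not normalized. Of its 13032 cell columns, 11168 were not used here. Members and gene lists were chosen with earlier results of these data known. Counts were summed per pool and class (at least 10 cells) and tested with edgeR 4.0.16 in R 4.3.3 (filterByExpr, TMM, quasi-likelihood, pool as block, Benjamini-Hochberg). Same-numbered sums come from the same pool of embryos, so the block is part of the design; 4 sums and 3 coefficients leave 1 residual degree of freedom. The genes named were those of the lists and the 10 largest differences in each direction among called genes with the same sign in both pools and a mean log2 CPM of at least 5. DESeq2 1.42.0 and limma 3.58.1 were alternatives. The fit was tested on simulated data. Doublets were not called. Members held 11919 to 938258 UMIs each.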

Additional observations from a re-analysis of the deposited data

Results flagged for a closer look

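Outside the E7.5 cells, 267 of 731 E6.5 cells met the same 3 limits, 75 of 469 in R1, 83.7% of 166 in R2 and 53 of 96 in R3, whereas 0 of 191 E8.5 cells did. Summed over the R2 cells, T was 301 CPM, Mesp1 400 CPM and Foxf1 120.6 CPM; in R1, T was 19.2 CPM, Elf5, a gene of extraembryonic ectoderm, 256 CPM and Tfap2c 294 CPM.

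A Meig1 UMI was found in 172 members of R2 libraries 2 and 3, against 9 of the 342 members of the other libraries.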

How the results depend on the processing

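Against all other cells, 278 genes were higher and 723 lower. The higher count was 418 with no filter, 40 with limma, 502 with Hand1 at 100 CPM and 156 with Apoa1 under 100 and Dppa3 under 20 CPM; the lower count was 29 with limma and 1172 with Hand1 at 100 CPM. Leaving out a pool, fitted by library, gave 79 to 1308 higher and 194 to 1999 lower. Against Hand1-low cells, 163 and 230 became 40 and 27 with limma, 396 and 756 with Hand1 at 100 CPM, and 476 and 560 without R2. Alternatives chosen after seeing the data test other numbers of genes and are given as percents of them, higher then lower. Against all other cells, 1.58% and 4.11% became 4.85% and 6.77% with sums per library, 1.03% and 2.46% with pool and name field as blocks, 0.0073% (1 gene) and 0% in EPIrandom cells alone, 1.15% and 4.3% in FACSrandom cells alone, and 0.787% and 2.35% with R2 reduced to its library 1. Against Hand1-low cells, 1.01% and 1.42% became 1.92% and 2.3% by library, 2.67% and 3.79% by name field in R1 alone, where both kinds had at least 10 cells on each side, and 0.668% and 0.853% with R2 reduced. The causes were not tested.

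With no replicate block, edgeR called 0 higher and 0 lower in both comparisons, with 1561 and 1259 genes at an unadjusted p under 0.05.

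Against all other cells, Tnnt2 was -0.68 with the lower Apoa1 and Dppa3 limits, Junb was 0.20 in EPIrandom cells, and without R1 Lefty2 was -0.086, Hhex 0.20, Col4a1 0.17, Spon1 0.27 and Junb 0.40. Against Hand1-low cells Ttr was 0.17 by library, 0.63 by name field in R1 alone, 0.052 with R2 reduced and 0.18 without R2, and Fos was 0.32 by name field in R1 alone. Thinned to 50000 UMIs, the shares of members with a UMI were 96.8% for T, 89.2% for Mixl1, 93.8% for Rspo3 and 96.6% for Msx1. Alternatives leaving the Hand1-low cells of 1 pool were not run for that comparison: thinning, Hand1 at 20 CPM, the lower Apoa1 and Dppa3 limits, either name field alone, and leaving out R1. The comparison by T had no other alternative with 2 pools except a minimum of 5 cells at 50 CPM, which called 177 higher and 214 lower. At 50 CPM in R1 alone, 10 were higher and 14 lower by library (libraries 1 and 2, 67 against 33 cells), and 36 and 34 by name field.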
